A study of Homo sapiens with 12 samples.

Results

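Transcript levels in etoposide were compared between HT1080 cells carrying a lipid-binding mutant of ING2 and cells carrying the wild-type protein, on the 3 arrays whose titles name ING2-6K and etoposide and the 3 whose titles name ING2-WT and etoposide, 6 of the 12 arrays of the series. The arrays were taken by title alone, and all 11443 genes that passed a filter on dim probes were compared. HT1080 is an established line from a human fibrosarcoma. Every culture had been stably transduced with retrovirus to express epitope-tagged, full-length ING2, so the groups share the vector and the tag. ING2-WT is the wild-type protein. In ING2-6K/Rmt, basic residues of the polybasic region were replaced, and the study describes this mutant as deficient in binding PtdIns(5)P while it still binds H3K4me3. Per the labels, all 6 cultures received 100 uM etoposide for 16 h, while another time stands in the study's text. The remaining 6 arrays, 3 of each line, received the solvent DMSO. The study's legends speak of populations of stably expressing cells and of biological replicates, and the labels do not say how the cultures of a group were kept apart. The p-values measure the spread between these arrays.

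ING2 is a subunit of a co-repressor complex with SIN3A and the histone deacetylase HDAC1. Its PHD finger reads histone H3 trimethylated at lysine 4, and its polybasic region binds PtdIns(5)P, a nuclear phosphoinositide. Etoposide traps topoisomerase II on cleaved DNA, and in cells with working p53 the breaks stabilise p53, which raises the cyclin-dependent kinase inhibitor CDKN1A, after which genes of S phase and mitosis are shut off together through E2F sites, CCAAT boxes and cell cycle homology regions in their promoters.

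Some arrays stood apart or went against their labels. Levels below are quantile-normalised intensities with no unit, in which a value under 64 counts as dim and 16 is the floor. On ING2-WT etoposide replicate 3, 22 genes that read 1000 or more on each of the other 11 arrays read under 64, where every other array had 0 such genes, and 791 genes lay at the floor, against 46 to 291 on the others. Of 710 genes with several bright probes, 186 (26.2%) had probes over 2 log2 units apart on this array and 0 to 3 genes on any other. Its correlation with the other arrays of its group was 0.771 and 0.772, while replicates 1 and 2 of that group correlated at 0.969, and the array nearest to it was ING2-6K/Rmt DMSO replicate 3 (r = 0.812). The probes for ING2 read 478, 467 and 284 on the arrays labelled ING2-WT etoposide and 11846, 8853 and 206 on those labelled ING2-6K/Rmt etoposide (second probe, 347, 407 and 235 against 21056, 20293 and 119). High ING2 signal was thus on only 2 of the 12 arrays, replicates 1 and 2 labelled 6K/Rmt etoposide. The first probe read 556, 502 and 140 on the arrays labelled 6K/Rmt DMSO and 649.8 or less on each of the 10 arrays other than those 2. The nearest array of 6K/Rmt etoposide replicate 3 was ING2-WT DMSO replicate 3 (r = 0.979, against 0.937 and 0.948 with its own group). ING2-WT DMSO replicate 3 correlated with its own group at 0.873 and 0.891, where replicates 1 and 2 correlated at 0.980. For 6K/Rmt DMSO replicate 3 these values were 0.886 and 0.891, against 0.979. Each array numbered 3 thus stood apart from replicates 1 and 2 of its group.

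The treatment markers of the arrays labelled 6K/Rmt also ran against the treatment labels. The median level over 82 genes of mitosis was 590 to 1075 on the 3 ING2-WT DMSO arrays and 80.1 to 115 on the 3 ING2-WT etoposide arrays, whereas it was 45.9 to 65.7 on the arrays labelled 6K/Rmt DMSO and 535 to 627 on those labelled 6K/Rmt etoposide. Whether those labels are as hybridised was not tested, and every direction below follows them. WT-labelled and 6K/Rmt-labelled arrays below are those of the etoposide groups, and differences are 6K/Rmt-labelled minus WT-labelled on the log2 scale. Results that rest on ING2-WT etoposide replicate 3 are marked where they are given.

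Cell type markers were those of a mesenchymal line in both groups. Of 15 mesenchymal and fibrosarcoma markers, 10 read 64 or more on all 6 arrays, among them VIM at 7977 or more and CD44 at 4690 or more, and THY1 was under 64 on all 6. Their summed level was 53712 to 73903 on the WT-labelled and 75376 to 94000 on the 6K/Rmt-labelled arrays. Of 15 epithelial markers 0 read 64 or more on all 6 and 11 were under 64 on all 6 (summed level, 522 to 565 and 438 to 575). Among blood cell markers with a probe, 1 of 14 read 64 or more on all 6 arrays, CSF1R, and PTPRC did not reach 64 on any (summed level, 500.4 to 837 and 441 to 764). The endothelial count was 0 of 10 (412 to 821 and 520 to 688).

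Of the 11443 genes, 630 (5.51%) differed between the 6K/Rmt-labelled and WT-labelled arrays at an adjusted p under 0.05 in limma, 359 higher (3.14%) and 271 lower (2.37%). Genes of mitosis, DNA replication and repair were among the higher, and targets of p53, histones, interferon-stimulated genes and stress genes were among the lower. At an unadjusted p under 0.05 the number was 2794. Among higher genes the median difference was 2.08 and 192 exceeded 2, a change of over 4-fold, while among lower genes the median was -1.72 and 93 lay under -2. Both groups were above 64 on all 6 arrays for 152 of the higher and 156 of the lower genes. Of the higher genes, 115 were dim on all 3 WT-labelled arrays, and of the lower, 72 were dim on all 3 6K/Rmt-labelled arrays, so that for these the data give only a lower bound of the fold change. The median difference of all genes was 0.033 and the median SE 0.433. With the deposited values as they are, the median of all genes was 0.136 and 466 genes were higher and 219 lower, and with 75th percentile scaling 0.120, 436 and 206, so that the higher genes made up 68.0% and 67.9% of the calls in place of 57.0%.

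Same-numbered pairs of arrays describe the size of the differences and are no test of their direction. All 359 higher genes were positive and all 271 lower genes negative in pairs 1, 2 and 3, and 474 of the 630 exceeded 1 in size in every pair. The test itself asks for groups that lie apart, and 33.4% of all genes had groups that did not overlap. Among them were all 359 higher and all 271 lower genes, so that their shared sign in the 3 pairs was fixed in advance. For the same reason a lack of overlap noted below adds nothing to a call. The median of the higher genes was 2.13, 1.80 and 2.23 in pairs 1, 2 and 3, and that of the lower genes -1.55, -1.62 and -1.95. Over all genes, 26.6% differed by over 1 in pair 1, 24.6% in pair 2 and 43.3% in pair 3, the pair that holds ING2-WT etoposide replicate 3. The replicate numbers pair no cultures as far as the labels say.

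Leaving out arrays moved the number of calls. Without ING2-WT etoposide replicate 3, 1143 genes (9.99%) were called, 699 higher (6.11%) and 444 lower (3.88%), of which 317 and 234 had been called with it. Without 6K/Rmt etoposide replicate 3 the number was 206 (1.80%), 133 higher (1.16%) and 73 lower (0.638%), and without all 4 arrays numbered 3 it was 4548 (39.7%), 2205 higher (19.3%) and 2343 lower (20.5%). Of the 630 genes, 0 changed sign in any of these 3 fits. That was fixed in advance, since the groups of every called gene lay apart with all arrays. In all 4 settings 127 higher and 71 lower genes were called. The count was 231 without WT etoposide replicate 1, 445 without replicate 2 of that group, and 184 and 204 when 6K/Rmt replicate 1 or 2 was dropped. In the 6 fits that leave out 1 etoposide array each, 98 higher and 40 lower genes were called every time.

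**Figure D1:**
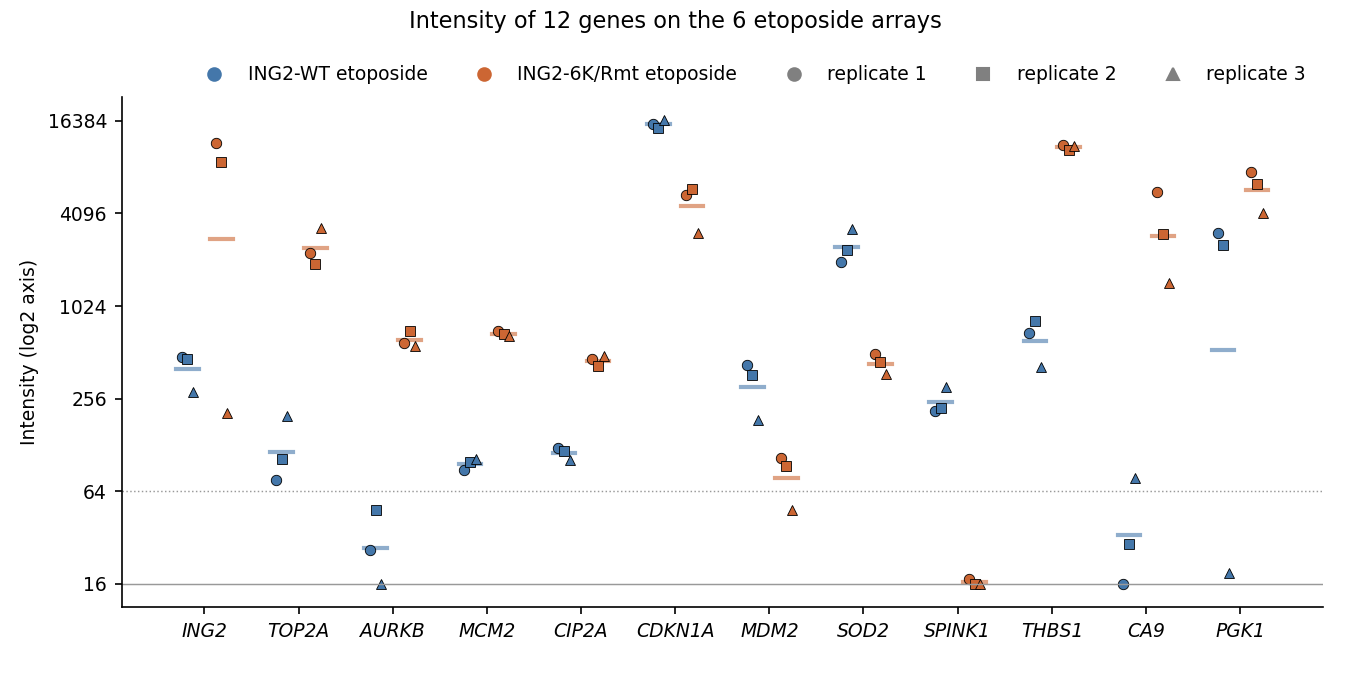
Intensity of 12 genes on the 6 etoposide arrays (log2 axis), with a symbol for each replicate number, a bar at each group's mean of log2 values, a dotted line at 64 and a solid line at the floor of 16. TOP2A, AURKB, MCM2 and CIP2A are higher and CDKN1A, MDM2, SOD2 and SPINK1 lower on all 3 6K/Rmt-labelled arrays, while ING2 is high on only 2 of them and PGK1 reads 18.9 on WT etoposide replicate 3 alone.

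Genes of mitosis and G2/M were higher as a group. Of 82 measured, 63 were higher and 0 lower (all genes tested, 3.14% higher), and the median difference was 2.47 against 0.033 over all genes. TOP2A, the topoisomerase II that etoposide binds, read 75.7, 104 and 196 on the WT-labelled arrays and 2256, 1937 and 3319 on the 6K/Rmt-labelled arrays. The groups did not overlap, and the lowest 6K/Rmt-labelled array was well above the highest WT-labelled one. The difference was 4.40 (SE 0.40, limma adjusted p = 0.000761), or 4.90, 4.22 and 4.08 in pairs 1, 2 and 3. The kinase AURKB, which corrects chromosome attachment to the spindle, read 26.4, 48.7 and 16 on the WT-labelled arrays, all dim, and 593, 705 and 564 on the 6K/Rmt-labelled arrays. It was at least 9.65-fold higher (adjusted p = 0.00113).

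Regulators of mitotic entry and exit moved alike. CCNB2, a cyclin that partners CDK1, read 155, 152 and 124 on the WT-labelled and 1100.1, 874 and 924 on the 6K/Rmt-labelled arrays (difference 2.75, SE 0.34, adjusted p = 0.00189). CDC20, the activator of the anaphase-promoting complex, read 668, 794 and 299.9 against 4277, 3727 and 3877 (2.87, SE 0.39, adjusted p = 0.00303). UBE2C, the ubiquitin-conjugating enzyme of that complex, read 271, 262 and 75.1 against 2189.9, 2168 and 1574 (3.48, SE 0.51, adjusted p = 0.00373). In none of these 3 did the groups overlap, and for CDC20 and UBE2C the lowest reading was that of ING2-WT etoposide replicate 3, without which the differences were 2.44 and 2.88. The survivin gene BIRC5, whose product works in one complex with AURKB, read 206, 243 and 71.3 against 1129.5, 1111 and 794 (2.71, adjusted p = 0.0125). Its call was lost without 6K/Rmt etoposide replicate 1 or 2 (adjusted p = 0.0535 and 0.0529). The lowest reading of BIRC5 was also that of ING2-WT etoposide replicate 3, without which the difference was 2.16. A second, dimmer BIRC5 probe read 25.5, 53.9 and 119.7 against 169.8, 138.1 and 98.1, a difference of 1.27 with overlap. The mean over the probes was still called (1.99, limma adjusted p = 0.0157).

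Spindle and centromere genes were also higher. KIF20A, a kinesin of cytokinesis, read 172, 200 and 135 on the WT-labelled and 1072, 971 and 1295 on the 6K/Rmt-labelled arrays (2.73, SE 0.26, adjusted p = 0.000761). PRC1, which bundles midzone microtubules, read 175, 240.5 and 309 against 1903, 1721 and 2172 (3.03, SE 0.32, adjusted p = 0.000802). DLGAP5, a spindle assembly factor, was dim on the WT-labelled arrays (35.1, 40.5 and 51.8) and read 654, 513 and 693 on the others, at least 9.61-fold higher (adjusted p = 0.000761). For KIFC1, a minus-end kinesin, 2 of 3 WT-labelled arrays reached 64, and for LMNB1, a lamin of the nuclear envelope, HJURP, which loads the centromeric histone, and CENPF, a kinetochore protein, 1 of 3 did. These 4 genes differed by 3.53, 3.46, 4.33 and 4.26 (adjusted p = 0.000761, 0.000761, 0.000802 and 0.00363), values set in part by dim readings, and with the floor at 64 by 3.48, 3.14, 3.29 and 3.59. For CENPF the reading above 64 was on ING2-WT etoposide replicate 3, without which the difference was 4.81. With ING2-WT etoposide replicate 3 left out, 65 genes of the list were higher (all genes, 6.11% higher) and 0 of its genes moved by over 1. With 6K/Rmt etoposide replicate 3 left out 47 were higher (all genes, 1.16% higher). In all 6 fits that leave out an array 42 were called, against 98 higher genes among all 11443. Its median was 2.64, 2.08 and 2.38 in pairs 1, 2 and 3.

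The promoters of genes that moved together are shown for 5 of them, as the 250 bases before the annotated start (RefSeq, GRCh38.p14, strand of the gene, 5′ to 3′), because the motifs that are known to couple these genes to the cell cycle lie there. Capitals mark the cell cycle homology region (TTTGAA, its reverse complement TTCAAA, or TTCGAA), the CCAAT box (CCAAT or ATTGG) and an E2F-like core (TTCCCGCC, GGCGGGAA, TTTCCCGC or GCGGGAAA). TOP2A lies at chr17:40417897-40418146 on the minus strand, CCNB2 at chr15:59104896-59105145 on the plus strand, CDC20 at chr1:43358731-43358980 on the plus strand, AURKB at chr17:8210226-8210475 on the minus strand and GINS2, a replication gene described below, at chr16:85688955-85689204 on the minus strand.
TOP2A: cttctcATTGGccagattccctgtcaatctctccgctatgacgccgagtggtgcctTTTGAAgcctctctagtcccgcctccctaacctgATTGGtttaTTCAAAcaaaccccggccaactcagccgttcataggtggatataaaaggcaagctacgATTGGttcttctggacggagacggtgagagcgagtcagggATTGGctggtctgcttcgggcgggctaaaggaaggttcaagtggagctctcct
CCNB2: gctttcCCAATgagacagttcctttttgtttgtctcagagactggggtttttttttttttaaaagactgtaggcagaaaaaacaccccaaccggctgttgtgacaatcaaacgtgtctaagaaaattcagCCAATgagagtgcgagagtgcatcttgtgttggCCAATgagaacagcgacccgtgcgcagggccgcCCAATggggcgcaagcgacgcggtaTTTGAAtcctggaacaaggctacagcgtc
CDC20: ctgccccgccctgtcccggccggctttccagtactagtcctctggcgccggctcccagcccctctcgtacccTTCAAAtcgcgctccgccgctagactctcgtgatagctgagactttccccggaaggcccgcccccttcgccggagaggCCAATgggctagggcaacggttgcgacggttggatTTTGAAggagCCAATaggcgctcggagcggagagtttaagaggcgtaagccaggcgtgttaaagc
AURKB: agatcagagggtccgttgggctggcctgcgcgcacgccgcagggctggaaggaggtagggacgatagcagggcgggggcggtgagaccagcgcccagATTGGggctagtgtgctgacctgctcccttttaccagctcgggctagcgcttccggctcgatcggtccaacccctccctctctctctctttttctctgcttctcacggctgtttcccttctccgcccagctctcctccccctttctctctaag
GINS2: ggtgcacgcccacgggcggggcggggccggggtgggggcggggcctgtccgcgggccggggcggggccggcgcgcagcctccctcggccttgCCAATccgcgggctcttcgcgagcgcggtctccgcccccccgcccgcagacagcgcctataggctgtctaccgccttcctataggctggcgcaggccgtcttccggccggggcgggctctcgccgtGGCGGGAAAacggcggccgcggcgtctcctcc

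In these windows TOP2A held 2 cell cycle homology regions and 4 CCAAT boxes, CCNB2 held 1 and 4, and CDC20 held 2 and 2. The AURKB window held 1 CCAAT box and no cell cycle homology region of these letters. GINS2 held 1 CCAAT box and a pair of overlapping E2F-like cores, 32 and 31 bases before the start. Over the mitosis genes with a promoter, 36 of 68 (52.9%) held a cell cycle homology region, against 14.6% of 27305 promoters and 9.8% of 8386 promoters of tested genes, and 30 (44.1%) held both this motif and a CCAAT box, against 5.24% and 4.17%. The E2F-like core was in 14 of 55 (25.5%) replication promoters and in 3.46% of all. Among all 280 promoters of genes called higher, the shares were 20.4%, 48.2% and 10.4% for the homology region, the CCAAT box and the E2F-like core, and in 191 promoters of higher genes outside the mitosis, replication and repair lists 12.6%, 41.4% and 6.81%. Promoters of genes called lower gave 11.1%, 36.2% and 3.02%, and tested genes 9.8%, 36% and 6%. A match of letters is a description of the window and was not tested as a site.

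Genes of DNA replication and G1/S followed. Of 65 measured, 28 were higher and 0 lower (all genes tested, 3.14% higher), with a median of 1.37 (1.34, 1.16 and 1.39 in the 3 pairs). MCM2, a subunit of the replicative helicase, read 87.7, 99.1 and 104 on the WT-labelled and 705, 673 and 651 on the 6K/Rmt-labelled arrays. The groups lay far apart with little spread in either (2.81, SE 0.29, adjusted p = 0.000802). MCM4 read 343, 394 and 289.6 against 1439, 1506 and 1446 (2.11, SE 0.24, adjusted p = 0.00109). MCM6 read 573, 549 and 448 against 2089, 1668 and 2553 (1.99, SE 0.25, adjusted p = 0.00193). POLD1, the catalytic subunit of DNA polymerase delta, read 88.9, 102 and 67.2 against 394, 487 and 489 (2.42, SE 0.30, adjusted p = 0.00189). In none of these genes did the groups overlap. GINS2, a subunit of the helicase cofactor GINS, read 117, 229 and 82.6 against 857, 709.7 and 628 (2.48, SE 0.49, adjusted p = 0.0161), and its call was lost in 4 of the 6 fits that leave out an array, WT etoposide replicate 1 and each 6K/Rmt array (adjusted p = 0.0523 to 0.0692). Of the list, 32 genes were higher without ING2-WT etoposide replicate 3, 13 without 6K/Rmt etoposide replicate 3 and 50 without the arrays numbered 3 (all genes, 6.11%, 1.16% and 19.3% higher). Dropping WT replicate 1 or 2 left 14 or 18 higher genes, and dropping 6K/Rmt replicate 1 or 2 left 13 or 12. Over all 11443 genes, 159, 316, 114 and 137 were higher in these 4 fits.

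Genes of homologous recombination and Fanconi repair, which mend broken and cross-linked DNA in S phase and G2, were in part higher. Of 30 measured, 12 were higher and 0 lower (all genes tested, 3.14% higher), with a median of 0.85. FANCI, which acts at stalled forks, read 99.2, 101 and 81.5 on the WT-labelled and 557, 391 and 487 on the 6K/Rmt-labelled arrays (2.34, SE 0.26, adjusted p = 0.00108). POLQ, a polymerase of end joining, read 147, 120.4 and 178 against 609, 649 and 754 (2.19, SE 0.32, adjusted p = 0.00401). RAD51AP1, a cofactor of strand exchange, read 101, 94.7 and 52.5 against 405, 498 and 382 (2.42, SE 0.37, adjusted p = 0.00463). The 3 genes shared one order, every 6K/Rmt-labelled array above every WT-labelled one. FANCG, of the Fanconi core complex, read 212, 177 and 157 against 613, 636 and 630.0 (1.79, SE 0.29, adjusted p = 0.00592). BRCA1 and XRCC3 were dim on the WT-labelled arrays and at least 2.42-fold and 2.45-fold higher (adjusted p = 0.0127 and 0.00702), and BRCA1 lost its call without any 1 of the 6K/Rmt arrays (adjusted p = 0.0506 to 0.0535). Without ING2-WT etoposide replicate 3 there were again 12 higher genes, and 5 without 6K/Rmt etoposide replicate 3 (all genes, 6.11% and 1.16% higher). EXO1, an end-resection nuclease, read 106, 113 and 24.9 against 501, 379 and 440.5 (2.71, adjusted p = 0.0133), with the dim reading on ING2-WT etoposide replicate 3, a difference of 2.00 without that array (adjusted p = 0.0047), and no call without 6K/Rmt replicate 1 or 3 (0.0582 and 0.0535).

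**Figure D2:**
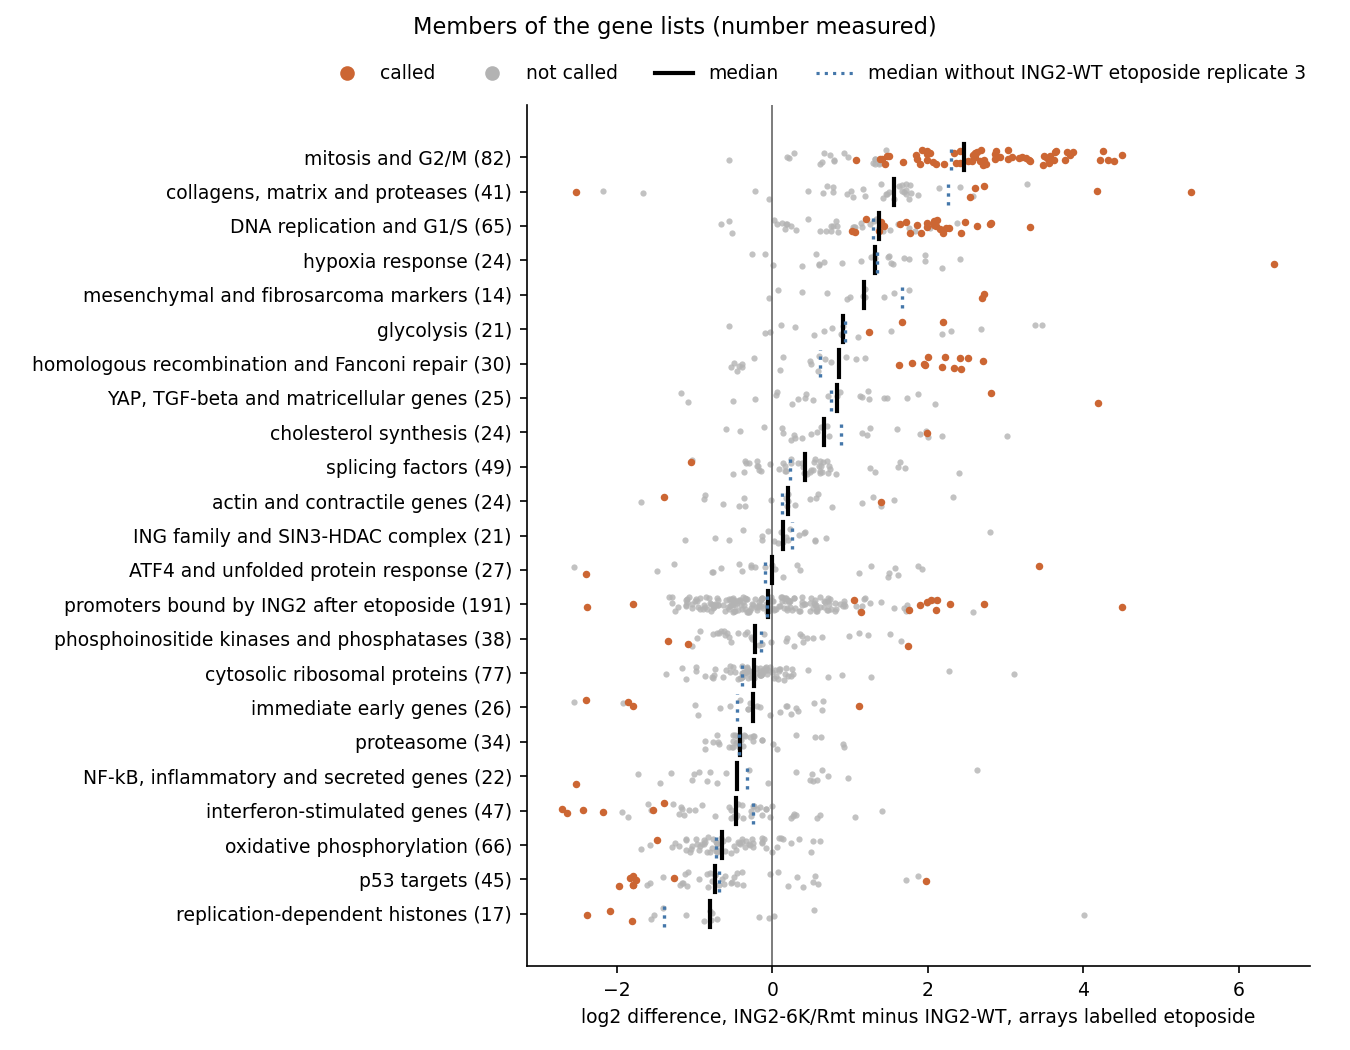
Log2 difference, 6K/Rmt-labelled minus WT-labelled, of each measured member of the gene lists, called members in orange, with the list's median as a black bar and the median without ING2-WT etoposide replicate 3 as a dotted blue bar. The mitosis list has its median at 2.47 with 63 of 82 called, and the p53 list at -0.74 with 7 of 45 called lower.

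Targets of p53 were lower in part. Of 45 measured, 7 were lower and 1 higher (all genes tested, 2.37% lower), with a median of -0.74, and 10 of the 45 were positive. CDKN1A, the cyclin-dependent kinase inhibitor p21, read 15549, 14618 and 16638 on the WT-labelled and 5417, 5896 and 3069 on the 6K/Rmt-labelled arrays. The groups did not overlap (-1.76, SE 0.31, adjusted p = 0.00979). Its second, dimmer probe read 248, 225 and 16 against 58.7, 58.6 and 38.8, and overlapped only through ING2-WT etoposide replicate 3. With the mean of a gene's probes in place of the brightest, CDKN1A was not called (-1.34, adjusted p = 0.132). KITLG, the ligand of KIT, read 578, 496 and 549 against 167, 155 and 144 (-1.80, SE 0.27, adjusted p = 0.00429), with a second probe at 196, 154 and 16 against 95.3, 72.7 and 90. Its mean over probes was -0.84 (adjusted p = 0.278), not called, and the second probe overlapped only through ING2-WT etoposide replicate 3. SERPINB5, the serpin maspin, read 1424, 1601 and 1219 against 483, 401 and 347 (-1.79, SE 0.29, adjusted p = 0.00592).

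Further p53 targets moved the same way with less certainty. MDM2, the ubiquitin ligase that degrades p53, read 424, 365 and 187 on the WT-labelled and 105, 93.5 and 48.7 on the 6K/Rmt-labelled arrays (-1.97, SE 0.38, adjusted p = 0.0152). Its call was lost without WT etoposide replicate 1 or 6K/Rmt replicate 3 (adjusted p = 0.0609 and 0.065). TP53I3, an oxidoreductase, read 3418, 3254 and 1656 against 687, 739 and 794 (-1.84, SE 0.36, adjusted p = 0.0151), and lost its call without WT etoposide replicate 1 or any 1 of the 6K/Rmt arrays (0.0522 to 0.0633). The second probe of TP53I3 read 129, 102 and 33.4 against 52.4, 78.8 and 85.2, and the mean over probes was not called (-0.97, adjusted p = 0.187). TRIAP1, an inhibitor of apoptosis, and BTG2, an antiproliferative gene, differed by -1.27 and -1.79 (adjusted p = 0.0467 and 0.0378), and each lost its call in 5 of the 6 fits that leave out an array (adjusted p = 0.0932 to 0.169 and 0.101 to 0.123). The 1 higher target, PTCHD4, a patched-like membrane protein, was dim on the WT-labelled arrays and at least 1.64-fold higher (adjusted p = 0.0251, lost in 4 of 6, 0.0762 to 0.0915). The lower count of the list was 11 without ING2-WT etoposide replicate 3, 3 without 6K/Rmt etoposide replicate 3 and 19 without the arrays numbered 3, while 3.88%, 0.638% and 20.5% of all genes were lower in these fits. It was 3, 4 and 4 without WT replicate 1 and 6K/Rmt replicates 1 and 2, when 72, 70 and 67 of all 11443 genes were lower. The median was -0.63, -0.71 and -1.0 in the 3 pairs.

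Replication-dependent histone genes, whose messages normally lack a poly(A) tail, gave 3 lower and 0 higher genes of 17 measured, with a median of -0.80. Of all genes tested, 2.37% were lower. H2AC20 read 2585, 2719 and 2909.7 on the WT-labelled and 915, 919 and 318 on the 6K/Rmt-labelled arrays (-2.09, SE 0.38, adjusted p = 0.012). H2AC18 read 4114, 3835 and 3626 against 1493, 1435 and 619 (-1.81, SE 0.34, adjusted p = 0.0127). Both histones had 6K/Rmt replicate 3 as their lowest array, and neither overlapped. The second probe of H2AC18 read 5540.4, 4317 and 24 against 1447, 1473 and 702, a difference of 0.46, opposite in sign through ING2-WT etoposide replicate 3, and the mean over probes was not called (-0.68, adjusted p = 0.644). H2AC18 lost its call without WT etoposide replicate 1 (adjusted p = 0.0503), and H4C8 (-2.39, adjusted p = 0.0204) lost its own in 4 of 6 fits (0.0596 to 0.0894). These genes belong to families of near-identical copies, so that probes may read several of them. Without ING2-WT etoposide replicate 3 the list had 7 lower genes (all genes, 3.88% lower) and a median of -1.40. The pairs gave -1.26, -1.08 and -0.27, the last from the pair with that array.

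Interferon-stimulated genes were lower in 6 of 47 measured and higher in 0 (all genes tested, 2.37% lower), with a median of -0.46. ISG15, a ubiquitin-like protein, read 1738, 1532 and 1428 on the WT-labelled and 346, 417 and 166 on the 6K/Rmt-labelled arrays (-2.44, SE 0.49, adjusted p = 0.019). IFIT3, a partner of IFIT1, read 240.4, 230.0 and 530.0 against 56, 90.5 and 62.6 (-2.18, SE 0.41, adjusted p = 0.0136). SP110, a nuclear body protein, read 1347, 1033 and 1434 against 459, 427 and 421 (-1.53, SE 0.29, adjusted p = 0.0131). On the probes used, no array of one group reached the other in these 3 genes. IFI27 and IFI35 were also lower (-2.65 and -1.40, adjusted p = 0.0354 and 0.0403). IFIT1, an antiviral RNA-binding protein, read 543, 338 and 1958 against 80.7, 118 and 136 (-2.71, adjusted p = 0.0459), and rests on ING2-WT etoposide replicate 3, without which it was not called (-1.98, adjusted p = 0.0647). None of the 6 kept its call in all fits that leave out 1 array. Without 6K/Rmt etoposide replicate 3, when only 0.638% of all genes were lower, 0 interferon genes were called. ISG15 lost it in 3 of the 6 fits (adjusted p = 0.0552 to 0.0828), IFIT3 in 2 (0.0595 and 0.0632) and with the mean over its probes (-1.21, 0.0689), SP110 in 4 (0.0515 to 0.0567), IFI35 in 4 (0.0851 to 0.13), IFI27 in 5 (0.052 to 0.132) and IFIT1 in 5 (0.0647 to 0.144). The median of the list was -0.51, -0.22 and -1.26 in the 3 pairs, and -0.25 without ING2-WT etoposide replicate 3. Replicate 3 also had the highest median level in both DMSO groups (284, 197 and 412 in WT, 405, 389 and 783 in 6K/Rmt).

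Among inflammatory and stress genes single members moved. Of 22 NF-kB, inflammatory and secreted genes 1 was lower and 0 higher (median -0.45), against 2.37% and 3.14% of all genes tested. The lower gene was SOD2, the mitochondrial superoxide dismutase. It read 1984, 2380.5 and 3261 on the WT-labelled and 498, 442 and 369 on the 6K/Rmt-labelled arrays, with no overlap (-2.52, SE 0.37, adjusted p = 0.00371). The chemokine CXCL8 read 1706, 1749 and 721 against 443, 369.6 and 657, and the prostaglandin synthase PTGS2 206, 193 and 894 against 2364, 2096 and 1697. In both genes ING2-WT etoposide replicate 3 lay nearest to the other group, and neither was called with it (-1.44 and 2.63, adjusted p = 0.111 and 0.113) while both were without it (-1.86 and 3.35, adjusted p = 0.0388 and 0.047). That array thus held back these 2 calls, and the list had 4 lower genes and 1 higher without it (all genes, 3.88% and 6.11%). The secreted cytokine IL24 read 649.5, 993 and 369 against 92.8, 39.2 and 16 (-4.0, adjusted p = 0.0341, lost in 5 of 6 fits, 0.0513 to 0.136).

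Of 27 genes of the ATF4 and unfolded protein response, 1 was lower and 1 higher, with a median of 0.00. Over all genes tested, 2.37% were lower and 3.14% higher. DDIT3, the stress transcription factor CHOP, read 451, 541 and 659 on the WT-labelled and 106, 127 and 82.2 on the 6K/Rmt-labelled arrays (-2.39, SE 0.35, adjusted p = 0.00371). VLDLR, a lipoprotein receptor, read 45.1, 69.8 and 84.3 against 719.8, 493 and 943 (3.43, SE 0.69, adjusted p = 0.0187), a call lost in 3 of 6 fits (0.0656 to 0.0828). These genes moved in opposite directions, each without overlap. Among 26 immediate early genes 3 were lower and 1 higher (median -0.25). RHOB, a small GTPase induced by DNA damage, read 1820.4, 1749 and 1809 against 560.4, 544 and 394 (-1.86, SE 0.26, adjusted p = 0.00361). FOSB was lower (-2.40, adjusted p = 0.0339, lost in 5 of 6 fits, 0.0567 to 0.129), and so was BTG2, which is also a p53 target. SRF, the serum response factor, was higher (1.12, adjusted p = 0.0215, lost in 4 of 6 fits, 0.0585 to 0.0934). Outside the lists, the small heat shock protein HSPB8 read 769, 662 and 385 against 131, 64 and 95.5 (-2.64, SE 0.40, adjusted p = 0.00448), and the haem oxygenase HMOX1 969, 1140.5 and 446 against 117, 101 and 58.4 (-3.16, SE 0.74, adjusted p = 0.0341, lost in 5 of 6 fits, 0.0848 to 0.13).

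**Figure D3:**
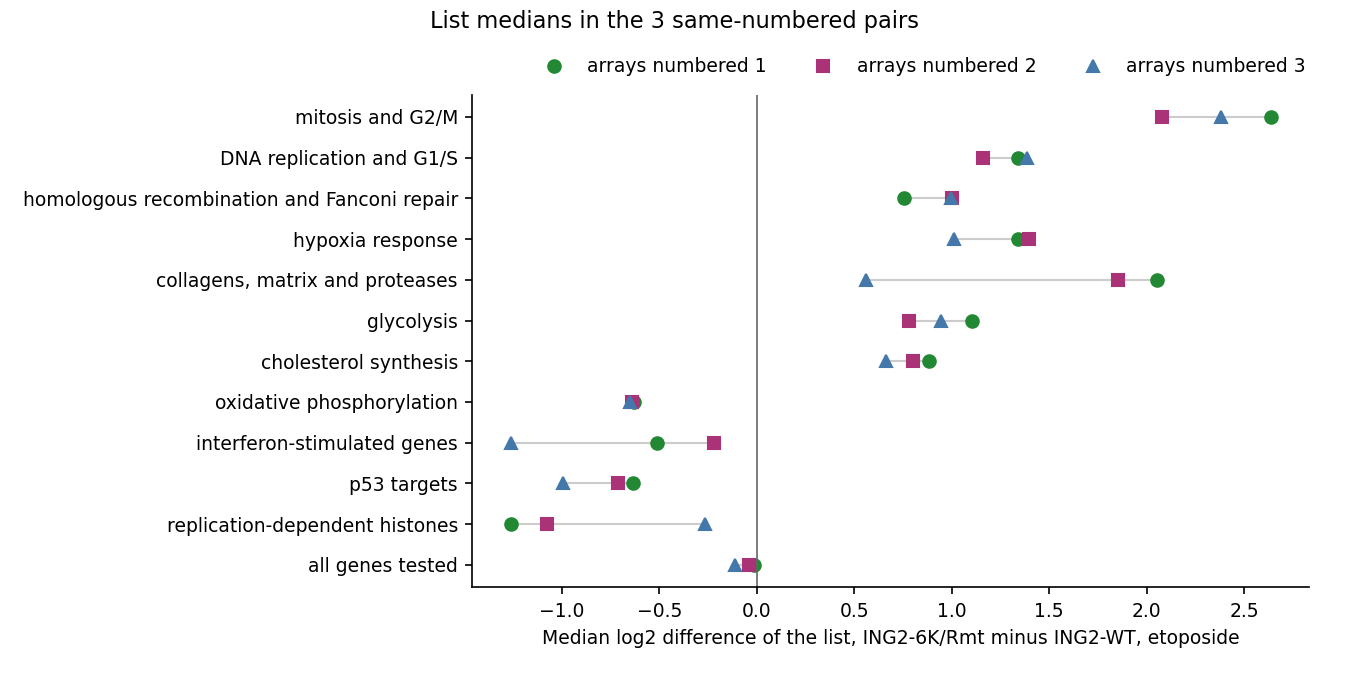
Median log2 difference of 11 gene lists and of all genes tested in each same-numbered pair of arrays, 6K/Rmt-labelled minus WT-labelled, with a symbol and colour for each replicate number. Mitosis lies between 2.08 and 2.64 in the 3 pairs, while matrix genes drop to 0.56, histones rise to -0.27 and interferon genes fall to -1.26 in pair 3, which holds ING2-WT etoposide replicate 3. Median levels of the matrix and interferon lists were highest on replicate 3 of both DMSO groups as well.

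Secreted, matrix and adhesion genes held some of the largest differences. THBS1, the matricellular protein thrombospondin, read 681, 814 and 413 on the WT-labelled and 11469, 10622 and 11312 on the 6K/Rmt-labelled arrays. The difference was 4.19 (SE 0.45, adjusted p = 0.000866), and 4.07, 3.71 and 4.77 in the pairs. Of 41 collagens, matrix genes and proteases, 5 were higher and 1 lower (all genes tested, 3.14% and 2.37%), with a median of 1.56. FAM20C, a kinase of secreted proteins, read 152, 132 and 82.7 against 2132, 1344 and 3418 (4.18, SE 0.75, adjusted p = 0.0113, lost without 6K/Rmt replicate 3, 0.0535). The gelatinase MMP9 was dim on the WT-labelled arrays (16, 17.7 and 30.1) and read 2092, 1423 and 209 on the others, at least 13.3-fold higher (adjusted p = 0.00757). The collagenase MMP1 ran the other way, 406, 381 and 308 against 79.3, 66.6 and 46.7 (-2.53, SE 0.52, adjusted p = 0.0195, lost in 4 of 6 fits, 0.0522 to 0.0863). The groups of these 4 genes did not overlap.

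The other called matrix genes, and NRP1 outside the list, were less certain. MMP14, a membrane protease, read 198, 159 and 240.5 on the WT-labelled and 1422, 1017 and 1497 on the 6K/Rmt-labelled arrays (2.72, adjusted p = 0.0322). COL4A2, a basement membrane collagen, read 319, 365 and 337 against 2036, 2177 and 1759 (2.55, adjusted p = 0.0431). COL13A1, a transmembrane collagen, read 467, 414 and 1975 against 5212, 3943 and 4206 (2.61, adjusted p = 0.0362), and NRP1, a co-receptor for VEGF and semaphorins, 702, 693 and 3651 against 9912, 7845 and 11331 (2.99, adjusted p = 0.034). In the last pair of genes ING2-WT etoposide replicate 3 read several times above replicates 1 and 2, and without it the differences were 3.33 and 3.78 (adjusted p = 0.00488 and 0.00495). With the mean over its probes NRP1 was not called (2.37, adjusted p = 0.0624). MMP14, COL13A1 and NRP1 lost their calls in 5 of the 6 fits each (0.0793 to 0.115, 0.096 to 0.12 and 0.0873 to 0.119) and COL4A2 in all 6 (0.0524 to 0.125). The list had 11 higher genes (all genes, 6.11% higher) and a median of 2.26 without ING2-WT etoposide replicate 3. It had 1 higher gene without 6K/Rmt etoposide replicate 3 (all genes, 1.16% higher) and 2 without any 1 of the other 4 arrays (all genes, 114 to 316 of 11443 higher). Without the arrays numbered 3 it had 31 (all genes, 19.3% higher). Its pair medians were 2.05, 1.85 and 0.56. The median level of the list was 353, 293 and 1760 on the WT DMSO arrays. On those labelled 6K/Rmt DMSO it was 630, 685 and 1770, so that replicate 3 was highest in both DMSO groups too. Of the 14 measured mesenchymal markers 2 were higher, MMP14 and the TGF-beta co-receptor ENG (2.70, adjusted p = 0.0387, lost in all 6 fits, 0.0519 to 0.142), with a median of 1.18.

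Targets of YAP and TGF-beta gave 2 higher, THBS1 and the latent TGF-beta binding protein LTBP1, and 0 lower of 25 (median 0.83). Over all genes tested, 3.14% were higher and 2.37% lower. LTBP1 was dim on the WT-labelled arrays (21, 16 and 16) and read 113, 93.5 and 178 on the others, at least 1.93-fold higher (adjusted p = 0.0364), and lost its call in 5 of 6 fits (0.0827 to 0.138) and with the floor at 64 (0.177). The list had 6 higher genes without ING2-WT etoposide replicate 3, and 1 when 6K/Rmt etoposide replicate 3 was dropped (all genes, 6.11% and 1.16% higher). Actin and contractile genes gave 1 higher and 1 lower of 24 (median 0.21). TAGLN, an actin-binding protein of smooth muscle, read 2779, 3001 and 1761 on the WT-labelled and 886, 918 and 1004 on the 6K/Rmt-labelled arrays (-1.39, SE 0.27, adjusted p = 0.0162, lost in 5 of 6 fits, 0.0527 to 0.0715, and with the mean over its probes, 0.14). The second probe of TAGLN read 481, 548 and 56.2 against 106, 124 and 118, and overlapped only through ING2-WT etoposide replicate 3. ACTN4, an actin crosslinker, was higher (1.40, adjusted p = 0.0354, lost in 4 of 6 fits, 0.0558 to 0.128). ACTA2, smooth muscle actin, read 6155, 5364 and 4759 against 3561, 3194 and 2293 (-0.86, SE 0.27, adjusted p = 0.0873) and was not called, although its groups did not overlap. RND3, an atypical small GTPase, read 2899.5, 2721 and 2161 against 675, 499.7 and 402 (-2.32, SE 0.42, adjusted p = 0.012, lost without 6K/Rmt replicate 3, 0.0546).

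Hypoxia response and glycolysis genes had positive medians with few calls. Of 24 hypoxia genes 1 was higher and 0 lower (all genes tested, 3.14% higher), with a median of 1.32 (1.34, 1.39 and 1.01 in the pairs). That gene, CA9, a carbonic anhydrase of the cell surface, read 16, 29.2 and 78.6 on the WT-labelled and 5662, 3019 and 1452 on the 6K/Rmt-labelled arrays. Its difference, 6.46 (SE 1.34, adjusted p = 0.0204), was the largest fitted difference of all called genes, against a WT-labelled group with 1 reading above 64, that of ING2-WT etoposide replicate 3. Without that array it was 7.08 against a wholly dim group, and with the floor at 64 and all arrays it was 5.41. The call was lost without WT etoposide replicate 1 or any 1 of the 6K/Rmt arrays (0.0529 to 0.0841). The glucose transporter SLC2A1 read 1143, 1155 and 3017 against 6351, 5593 and 10622, and P4HA1, a collagen prolyl hydroxylase, 325, 441 and 1658 against 2990.5, 3324 and 3671. Both were called without ING2-WT etoposide replicate 3 (2.65 and 3.13, adjusted p = 0.0377 and 0.0209, against 0.0749 and 0.0764 with it). In that fit 6 hypoxia genes and 6.11% of all genes were higher.

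Of 21 glycolysis genes, 3 were higher and 0 lower (all genes tested, 3.14% higher), with a median of 0.91. ENO1, an enolase, read 8798, 9487 and 5686 on the WT-labelled and 20293, 17946 and 17186 on the 6K/Rmt-labelled arrays (1.24, SE 0.29, adjusted p = 0.0323, lost in 4 of 6 fits, 0.0706 to 0.119). ENO2 and PFKL, another enolase and a phosphofructokinase, were at 2.20 and 1.67 (adjusted p = 0.0362 and 0.0338), each lost in 5 of 6 fits (0.0694 to 0.123 and 0.0925 to 0.115). LDHA, lactate dehydrogenase, read 5993, 6227 and 17610.0 against 19564, 14672 and 14552, so that only ING2-WT etoposide replicate 3 lay among the other group (0.89, adjusted p = 0.222, and 1.40, adjusted p = 0.0252, without it). The median over 24 genes of cholesterol synthesis was 0.67 (0.88, 0.80 and 0.66 in the pairs).

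Some genes had most or all of their difference from ING2-WT etoposide replicate 3. PGK1, a glycolytic kinase, read 3044, 2544 and 18.9 on the WT-labelled and 7620.0, 6321 and 4114 on the 6K/Rmt-labelled arrays, a difference of 3.47 (SE 1.46, adjusted p = 0.176) that was 1.32 and 1.31 in pairs 1 and 2 and 7.76 in pair 3. Without that array it was 1.07 (adjusted p = 0.0815), without the 4 arrays numbered 3 it was 1.32 and called (adjusted p = 0.00282), and a second probe of PGK1 read 1690.0, 1987 and 1549 against 4709, 4221 and 2535, a difference of 1.09 with all arrays. ALDOA, an aldolase, read 5454, 6385 and 19.6 against 9754, 10685 and 7340.4 (3.38, and 0.63 without the array), and its second probe 4551, 4189.9 and 1426 against 8853, 7216 and 4073. On that array 1 probe of each enzyme was dim, while the second probe of PGK1 was near its level on replicates 1 and 2 and that of ALDOA well below it. RPS2, a ribosomal protein, fell from 18928 and 19015 on the other WT-labelled arrays to the floor (3.11, and -0.29 without the array), and EEF1G, an elongation factor, from 11179 and 11696 to 37.5 (2.52, and -0.23). GAPDH read 15151, 15025 and 3954 against 23164, 17610.0 and 14672 (0.91, adjusted p = 0.259, and 0.27 without the array). In all, 673 genes moved by over 1 when that array was left out, 590 of them more positive with it, and 2 of the 673 were among the called genes against 84 among those called without it.

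**Figure D4:**
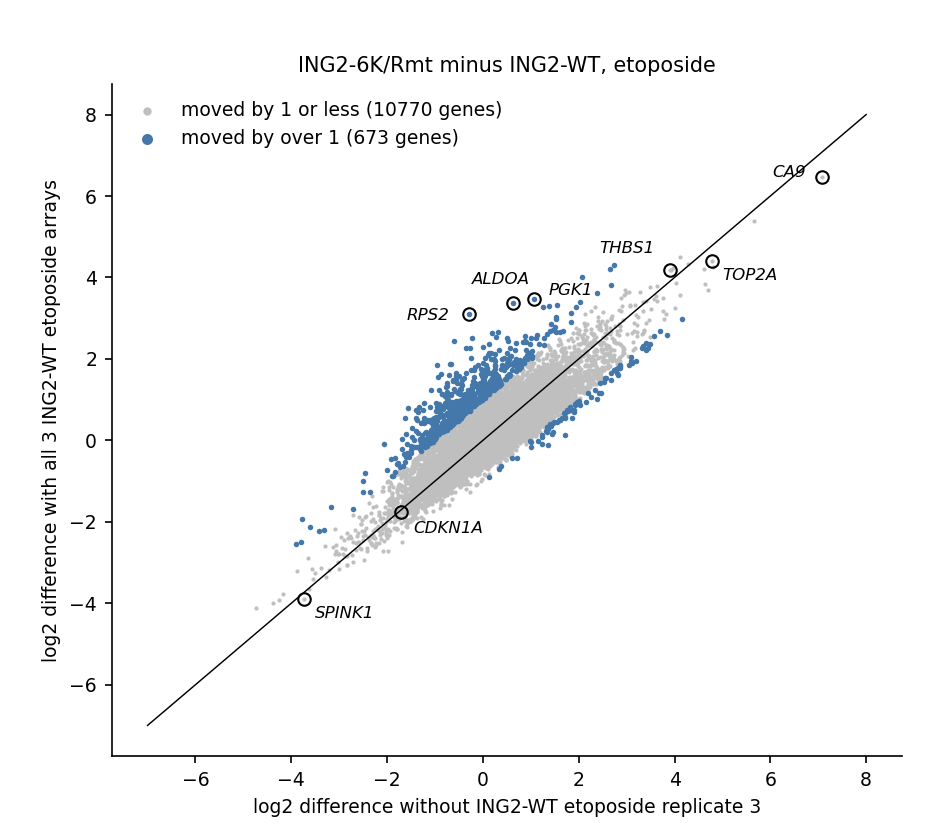
Log2 difference of each gene with all 3 WT-labelled arrays (vertical axis) against the difference without ING2-WT etoposide replicate 3 (horizontal axis), with the diagonal and, in blue, the 673 genes that moved by over 1. RPS2, ALDOA and PGK1 lie far above the diagonal, while TOP2A, THBS1, CDKN1A and SPINK1 lie close to it.

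Other large differences fell on genes outside the lists. SPINK1, a secreted protease inhibitor, read 212, 221 and 306 on the WT-labelled arrays and was dim on the 6K/Rmt-labelled arrays (17.2, 16 and 16), at least 3.80-fold lower (adjusted p = 0.000802). TAGLN3, a neuronal transgelin, read 1305, 1057 and 884 against 173, 117 and 183 (-2.79, SE 0.38, adjusted p = 0.00285), and was not called with the mean over its probes (-1.96, adjusted p = 0.0814). CGB1, of the chorionic gonadotropin beta family, read 944, 781 and 820.4 against 128, 99.8 and 62.2 (-3.19, SE 0.48, adjusted p = 0.00401), and since the copies of that family are near-identical the probe may read several of them. On the probes used, the groups of these 3 genes lay well apart on every array. The second probe of TAGLN3 read 303, 296 and 16 against 54.6, 46.4 and 54.8, and overlapped only through ING2-WT etoposide replicate 3. ESM1, a secreted endothelial proteoglycan, read 1081, 1079 and 1276 against 187, 77 and 94.7 (-3.36, SE 0.84, adjusted p = 0.0417) and lost its call in all 6 fits (0.0552 to 0.137). Of the few cell type markers measured, the endothelial VWF and the blood cell marker CD14 were at least 2.09-fold and 1.79-fold lower (adjusted p = 0.0139 and 0.0184), and the epithelial CDH1 at least 1.32-fold lower (adjusted p = 0.0339, not called without ING2-WT etoposide replicate 3, adjusted p = 0.0523). VWF read 199 or less, CD14 188 or less and CDH1 147 or less on every array, with the highest reading of each on ING2-WT etoposide replicate 3. VWF lost its call without any 1 of the 6K/Rmt arrays (0.0513 to 0.058), CD14 in 4 of 6 fits (0.0513 to 0.0814) and CDH1 in 5 (0.0523 to 0.107). Other markers of these lists went the other way. Of 5 endothelial, 3 blood cell and 3 epithelial markers measured, 4, 1 and 2 were positive (medians 0.35, -0.98 and 0.77). TIE1 was at 1.49 (limma adjusted p = 0.149) and at 2.20 without ING2-WT etoposide replicate 3 (0.0166). CSF1R, EPCAM and DSP were at 1.44, 0.98 and 0.77, not called, and DSP was at -0.32 without that array.

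Genes with promoters that ING2 occupied in etoposide, taken from the study's separate promoter assay, had a median close to that of all genes. Of 191 measured, 11 were higher and 2 lower, and the median was -0.06 against 0.033. Over all genes 3.14% were higher and 2.37% lower (5.51% in all). The list's higher share was thus above that of all genes and its lower share below it, which was not tested. AURKB, given above, was among the higher ones. BTG2, given above as a p53 target, also has a promoter that the study lists as bound, and it was lower (-1.79, limma adjusted p = 0.0378, lost in 5 of 6 fits). CIP2A, an inhibitor of the phosphatase PP2A, read 123, 117 and 103 on the WT-labelled and 463, 416 and 482 on the 6K/Rmt-labelled arrays (1.99, SE 0.28, adjusted p = 0.00361). JARID2, a Polycomb cofactor, read 168, 159.9 and 316 against 1167, 1181 and 715 (2.28, SE 0.37, adjusted p = 0.00672). In neither did the groups overlap, and both calls held without each array. CDCA5, the cohesin protector sororin, read 405, 511 and 253 against 1461, 1464 and 1261 (1.90, SE 0.36, adjusted p = 0.0133, lost without 6K/Rmt replicate 1 or 2, 0.0575 and 0.0572). TMPO, a lamin-binding protein, was dim on the WT-labelled arrays and at least 3.16-fold higher (adjusted p = 0.0119, lost without 6K/Rmt replicate 3, 0.0535).

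SKP2, a substrate receptor of a ubiquitin ligase, read 335, 366 and 509 on the WT-labelled and 1261, 1038 and 653 on the 6K/Rmt-labelled arrays. The groups did not overlap, but replicate 3 of each lay toward the other, and the difference of 1.26 (SE 0.40, adjusted p = 0.0914) was not called. Without the arrays numbered 3 it passed (adjusted p = 0.00201). The study selected AURKB, SKP2 and CIP2A partly on these arrays, so that their values here are no independent evidence of their direction. DKC1, a pseudouridine synthase of the telomerase complex, was at 0.20 (SE 0.29, adjusted p = 0.689), UBE2N, a ubiquitin-conjugating enzyme, at 0.05 (SE 0.51, adjusted p = 0.962), and PCGF2, a Polycomb subunit, at -0.01 (SE 0.27, adjusted p = 0.989), and the groups of each overlapped. RFWD3, a ubiquitin ligase of replication stress, and NIN, a centrosomal protein, were higher (1.14 and 1.05, adjusted p = 0.0378 and 0.0457, each lost in 5 of 6 fits, 0.0758 to 0.127 and 0.102 to 0.145, and NIN with the mean over its probes, 0.158). The list had 17 higher and 5 lower genes without ING2-WT etoposide replicate 3, 5 higher and 0 lower without 6K/Rmt etoposide replicate 3, and 34 and 32 without the arrays numbered 3. Over all genes the shares in these fits were 6.11% and 3.88%, 1.16% and 0.638%, and 19.3% and 20.5%.

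The complex and lipid pathway of ING2 itself gave few calls. Of 21 ING family and SIN3-HDAC genes 0 were called (median 0.13), ING2 included (2.81, SE 1.26, adjusted p = 0.200). Without 6K/Rmt etoposide replicate 3, which read 206, ING2 differed by 4.68 (adjusted p = 0.0135). Of 38 phosphoinositide kinases and phosphatases, 1 was higher and 2 lower (median -0.22), against 3.14% and 2.37% of all genes tested. FIG4, a phosphatase that removes the 5-phosphate of PtdIns(3,5)P2, read 246, 202 and 305 on the WT-labelled and 104, 119 and 74.8 on the 6K/Rmt-labelled arrays (-1.35, SE 0.29, adjusted p = 0.0235, lost in 4 of 6 fits, 0.0527 to 0.0971). PIP4K2C, of the kinase family that uses PtdIns(5)P as its substrate, read 324, 377 and 297 against 169, 135 and 165 (-1.09, SE 0.28, adjusted p = 0.0483, lost in 5 of 6 fits, 0.114 to 0.152). The groups of both lay apart. INPP5D, a phosphatase of PtdIns(3,4,5)P3, was dim on the WT-labelled arrays and at least 1.67-fold higher (adjusted p = 0.0462), and was not called without ING2-WT etoposide replicate 3 (adjusted p = 0.0691) nor in 4 other fits of the 6 (0.0528 to 0.163).

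Housekeeping lists showed small shifts. Over all genes tested, 2.37% were lower and 3.14% higher. Of 77 cytosolic ribosomal proteins and 34 proteasome genes 0 were called (medians -0.23 and -0.42; 8 ribosomal genes moved by over 1 without ING2-WT etoposide replicate 3). Of 66 oxidative phosphorylation genes, 1 was lower, UQCR11 of complex III (-1.48, adjusted p = 0.0362, lost in 4 of 6 fits, 0.0853 to 0.132), with a median of -0.65 that was -0.63, -0.64 and -0.65 in the pairs. Of 49 splicing factors 1 was lower, SF3A2 (-1.04, adjusted p = 0.0489, lost in all 6 fits, 0.0601 to 0.159), with a median of 0.42. Without the 4 arrays numbered 3, when 20.5% of all genes were called lower, 44 oxidative phosphorylation genes and 24 ribosomal protein genes were.

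The last comparison asks whether the difference between the lines on the etoposide arrays also stood on the DMSO arrays, which share no array with them. On the arrays labelled DMSO 284 genes (2.48%) were called, 35 higher (0.306%) and 249 lower (2.18%) in 6K/Rmt, and 743 genes (6.49%) differed between the comparisons, 440 more positive (3.85%) and 303 more negative (2.65%) in etoposide. TOP2A read 2035, 2425 and 3149 on the WT DMSO arrays and 79.9, 67.1 and 127 on the arrays labelled 6K/Rmt DMSO, the reverse of its order in etoposide. Of the 359 genes higher in etoposide, 159 were called lower in DMSO, 0 called higher, and 248 passed the test of the difference. Of the 271 genes lower in etoposide, 20 were called higher in DMSO, 0 lower, and 184 passed. The median of the 359 was -1.09 in DMSO and that of the 271 was 0.55. Across the 11443 genes, which are not independent replicates, the differences correlated at -0.325 (Pearson) and -0.230 (Spearman).

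The gene groups differed in how many of their called genes passed this test. Called genes were picked by their difference in etoposide, which is part of the test, and 432 of all 630 passed it. All 63 higher mitosis genes, all 28 higher replication genes and all 12 higher repair genes passed it, as did the 7 lower p53 targets, the 3 lower histones and the 6 lower interferon genes. Of the called matrix genes 0 passed, and neither did CA9. THBS1 stood between the kinds, with 3308, 2769 and 9671 on the WT DMSO arrays and 6818, 4630 and 4504 on those labelled 6K/Rmt DMSO (0.23, adjusted p = 0.964), and a difference between comparisons of 3.96 (SE 0.63, adjusted p = 0.00279). NRP1 was at -0.10 in DMSO, and its difference between comparisons did not pass (3.08, SE 0.99, adjusted p = 0.0924). SPINK1 passed (-5.53, SE 0.57, adjusted p = 0.000125). A gene that did not pass is not shown to differ equally in DMSO, since the SE of such a difference was larger than that within etoposide.

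**Figure D5:**
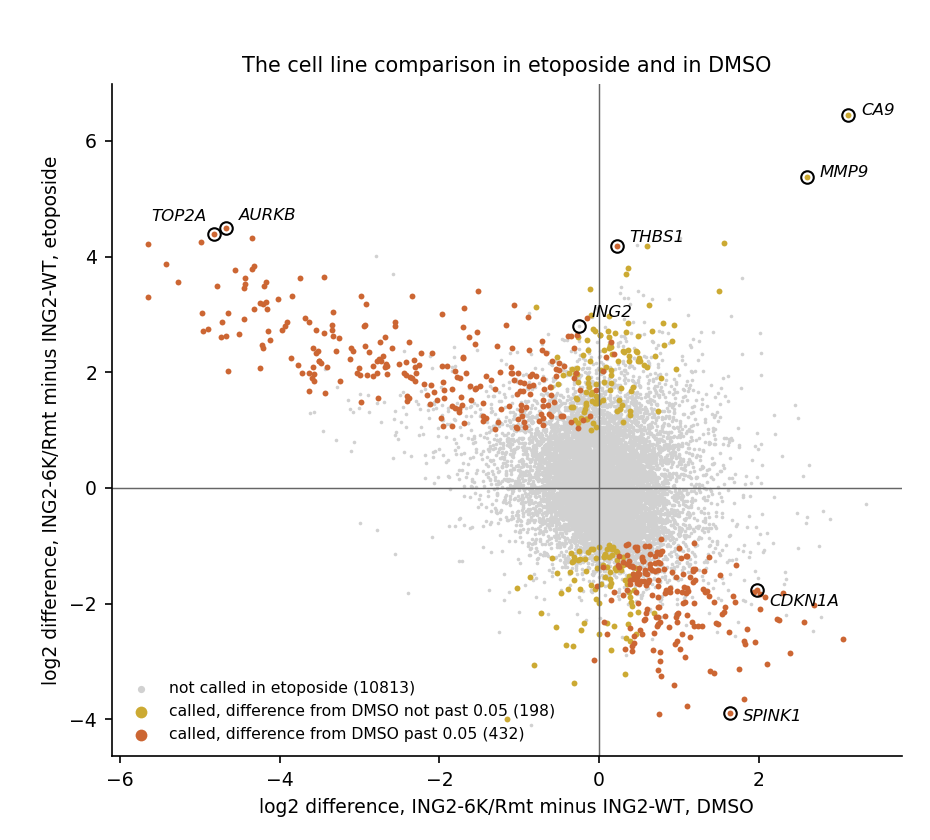
Log2 difference between the lines, 6K/Rmt-labelled minus WT-labelled, on the etoposide arrays (vertical axis) against that on the DMSO arrays (horizontal axis), for each gene, with genes called in etoposide in orange where the difference between the comparisons passed (432) and in ochre where it did not (198). TOP2A and AURKB lie at the upper left and CDKN1A and SPINK1 at the lower right, while MMP9 and CA9 are positive in both.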

How the data were processed

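Total RNA was hybridised to 12 Illumina bead arrays, 3 for each of 4 groups. The authors processed probe-level data in Genespring and deposited linear, background-subtracted intensities of 48797 probes, in which 0.434% to 26.9% of an array lay below 0 and which had been scaled between arrays in a way not given in the sources used here. A deposited file of another kind of column, with unit other, gave the gene symbol of each probe, of which 24094 probes held a current symbol, 4444 were updated through RefSeq and 7563 kept the file's name, while 12645 had none. In the same file 24 columns of signal and detection values matched no label and were not used. The arrays give no read depth, and their number limits the precision.

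Intensities were quantile-normalised, set to a floor of 16 and log2-transformed. A probe had to reach 64 on 3 or more arrays of the 12 (15459 probes did), and the brightest probe stood for its gene (11443 genes). Group means of all 12 arrays were fitted with limma 3.58.1 in R 4.3.3 with empirical Bayes moderation, and p-values were adjusted by Benjamini-Hochberg over all genes at a threshold of 0.05. The fit was run on simulated data with independent noise, no floor and no array with signal loss, so that run did not test these features. A gene dim on every array of one group is given as a lower bound of its fold, the bright group's mean against a dim group held at 64. Fits without an array treat the remaining ones as varying like the other groups.

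Arrays were taken by title. The gene lists and the rules were chosen with earlier results of these data known. Genes named are the largest called differences with groups apart, up to 4 members of each list by adjusted p, genes the study assayed and genes that moved most without ING2-WT etoposide replicate 3. Further called members of the lists were named after their values were seen, and the comparison between probes of a gene was also added after the data were seen. The bound promoters come from a separate promoter array experiment in the same line. The alternatives were other scalings, floors, filters, probe rules and thresholds, a replicate block, array weights, the 6 etoposide arrays alone, and each etoposide array left out.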

Additional observations from a re-analysis of the deposited data

Results flagged for a closer look

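The difference between the lines in etoposide was set against the same difference on the DMSO arrays, as an interaction term in limma, and passed for 743 genes and for 65 of the genes named above, each value below being the log2 difference in etoposide minus that in DMSO (adjusted p = 3.01e-06 to 0.0456). These values take the treatment labels of the arrays labelled 6K/Rmt as they stand.

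For genes of mitosis and the nuclear envelope the values were 9.22 for TOP2A, 9.16 for AURKB, 7.65 for CCNB2, 7.59 for CDC20, 6.70 for KIF20A, 8.01 for PRC1, 9.30 for DLGAP5, 7.68 for UBE2C, 7.97 for KIFC1, 7.67 for BIRC5, 9.24 for CENPF, 8.66 for HJURP, 5.49 for CDCA5, 7.91 for LMNB1 and 6.27 for TMPO. For replication and repair they were 5.75 for MCM2, 4.93 for MCM4, 4.78 for MCM6, 6.69 for GINS2, 3.52 for POLD1, 5.88 for FANCI, 6.0 for RAD51AP1, 5.70 for POLQ, 6.86 for EXO1, 3.98 for FANCG, 5.53 for BRCA1 and 4.37 for XRCC3. Among genes the study assayed or found bound they were 3.22 for SKP2, 4.43 for CIP2A, 2.40 for RFWD3, 2.09 for NIN and -1.94 for ACTA2. Several of these genes are dim in one of the groups, so that their values depend on the floor.

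Negative values fell on p53 targets, with -3.73 for CDKN1A, -3.67 for MDM2, -3.86 for TP53I3, -3.14 for SERPINB5, -2.69 for KITLG, -3.73 for BTG2 and -1.81 for TRIAP1, and on histones, with -4.12 for H2AC18, -4.10 for H2AC20 and -3.67 for H4C8. Interferon-stimulated genes gave -4.29 for ISG15, -3.71 for IFIT3, -2.0 for SP110, -4.47 for IFI27, -4.54 for IFIT1 and -2.59 for IFI35. Stress and immediate early genes gave -3.55 for SOD2, -3.12 for DDIT3, -3.24 for RHOB, -3.28 for FOSB, -4.55 for HMOX1 and -3.62 for HSPB8.

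Of the remaining genes, THBS1 gave 3.96 and ENO1 1.72, and TAGLN3 gave -3.12, SPINK1 -5.53, CGB1 -4.63, RND3 -3.49, VWF -3.76, CD14 -3.07, and further -1.75 for FIG4, -1.88 for PIP4K2C and -1.90 for UQCR11. Groups of 3 arrays were too small for a test of single outlying arrays.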

How the results depend on the processing

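Of the 86 called genes named above 0 changed direction under the 22 settings. Settings that only leave out arrays could not change a direction, since the groups of called genes lay apart. The call was kept by 32 genes in all settings except the block over 6 arrays and the threshold of 0.01, which few genes pass. The mean over a gene's probes ended 11 of their calls, CDKN1A, TP53I3, KITLG, H2AC18, IFIT3, NRP1, TAGLN, TAGLN3, PIP4K2C, NIN and SF3A2, the floor of 64 ended 5, PTCHD4, CD14, CDH1, INPP5D and LTBP1, and no filter on dim probes 22. The deposited scaling, the 75th percentile and cyclic loess ended 6, 7 and 5, with BTG2, IFI35, PIP4K2C and SF3A2 among them each time. The limits are 3 arrays a group, a floor that bounds the fold of dim genes, the arrays numbered 3, and the unstated scaling of the deposited values. Array weights were 0.0828 for ING2-WT etoposide replicate 3 and 0.430 for 6K/Rmt etoposide replicate 3. They were 0.170 and 0.181 for replicate 3 of WT DMSO and 6K/Rmt DMSO, against 1.46 to 3.87 for arrays numbered 1 and 2.

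In order of all, higher and lower genes called, where the reported values were 630, 359 and 271, the 6 etoposide arrays alone gave 334, 199 and 135, the filter of 64 on all 12 arrays 387 and 168 for all and higher, array weights 4919, 2500 and 2419, a threshold of 0.01 138, 99 and 39, and the arrays without those numbered 3 4548, 2205 and 2343. Leaving out 1 etoposide array at a time gave 184 to 1143, 114 to 699 and 67 to 444. The difference between etoposide and DMSO, reported at 743, was 4596 with array weights, 369 at 0.01, 4050 without the arrays numbered 3, and 515 to 1254 with 1 array left out.

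Of the mitosis genes called higher (63), there were 16 with the filter on all 12 arrays, 41 at 0.01 and 44 to 65 with 1 array left out. The filter on all 12 arrays left 7252 genes to test, of which 168 were higher. It took out genes dim on any array, AURKB and DLGAP5 among them, so its list counts come from fewer genes. For replication (28) the counts were 17 with that filter, 16 on 6 arrays, 51 with array weights, 11 at 0.01, 50 without the arrays numbered 3 and 12 to 32 with 1 left out. For p53 targets lower (7) they were 11 with a floor of 64, 3 on 6 arrays, 24 with array weights, 3 at 0.01, 19 without the arrays numbered 3 and 3 to 11. For matrix genes higher (5) they were 2 with no filter, 31 with array weights, 1 at 0.01, 31 without the arrays numbered 3 and 1 to 11.

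The labels give the groups shared replicate numbers. Deviations of same-numbered arrays correlated at 0.0999, 0.231 and 0.267 (different numbers, -0.250 to 0.209), and 4 of the 6 etoposide arrays correlated best with their own number. With a replicate block the counts were 1967, 924 and 1043 over all 12 arrays, with 1738 for the difference from DMSO, 15 p53 targets and 21 matrix genes. With the block and only the 6 etoposide arrays 0 genes were called in all, in either direction and in the mitosis, replication, p53 and matrix lists, while 2979 had an unadjusted p under 0.05 in limma.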
